A study of Drosophila melanogaster with 3 samples.

Results

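The 10 genes described here are core components of the Notch pathway: N, Dl, Ser, Su(H), H, mam, neur, fng, numb and Psn. They were taken by name from the 13968 protein coding genes of the annotation, and the binding sites assigned to them are the peak summits that lie inside each gene or within 2 kb of either end. The measurements are chromatin immunoprecipitation followed by sequencing (ChIP-seq) of CG2120, which the annotation calls an uncharacterized protein, fused at its C terminus to enhanced GFP. A single transgenic Drosophila melanogaster line was used, whole embryos were collected at 18 to 24 h, and an anti-GFP antibody served for the precipitation. There was 1 group of 3 biological replicates and no second genotype, stage or treatment, so no difference between conditions could be tested. What promoter drives the fusion protein was not stated in the labels, and whole embryos do not show in which cells a site was bound.

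Notch is a transmembrane receptor through which neighbouring cells signal by contact, and it is best known in the fly embryo for limiting the number of neural precursors and for setting apart the daughters of an asymmetric division. The ligands Delta and Serrate on one cell bind Notch on the next, the receptor is then cut within the membrane by gamma-secretase, and its intracellular part enters the nucleus and joins Su(H) and Mastermind at target genes. In the absence of signal, Su(H) is held in a repressing complex by Hairless. Neuralized promotes endocytosis of the ligands, Fringe adds sugars to the receptor and so changes which ligand it prefers, and Numb lowers Notch activity in one daughter cell.

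The optimal peak list, labelled by the authors as cut at a threshold on agreement between replicates, contained 8340 peaks. These were the 8340 strongest of the longer list pooled over the replicates, so a place in it does not show that a peak was found in every replicate. Of their summits 28 fell in 6 of the 10 genes: 12 in mam, 6 in neur, 5 in N, 3 in numb and 1 each in Su(H) and Psn. Dl, Ser, H and fng had none. The sequences around 7 of these summits are shown because they are the strongest site of N, of neur and of numb, the sole site of Su(H) and of Psn, and the pair of neur windows in which a known motif lies at the summit itself. Each is the 101 bases centred on the summit in the dm6 build, from the RefSeq release 6 assembly, 5′ to 3′ on the strand that carries the gene, with the word CGATA on either strand in capitals. CGATA is a word bound by the insulator protein BEAF-32. The windows of N and Psn are on the plus strand at chrX:3162493-3162593 and chr3L:20432462-20432562. Those of numb and Su(H) are also on the plus strand, at chr2L:9449636-9449736 and chr2L:15039366-15039466. The neur windows are on the minus strand, at chr3R:9020009-9020109 for summit 1, chr3R:9031970-9032070 for summit 2 and chr3R:9038813-9038913 for summit 5.
N summit 4: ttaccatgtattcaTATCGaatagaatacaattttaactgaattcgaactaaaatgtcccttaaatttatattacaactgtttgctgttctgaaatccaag
neur summit 2: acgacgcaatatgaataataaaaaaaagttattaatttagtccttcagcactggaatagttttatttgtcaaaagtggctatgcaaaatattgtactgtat
numb summit 3: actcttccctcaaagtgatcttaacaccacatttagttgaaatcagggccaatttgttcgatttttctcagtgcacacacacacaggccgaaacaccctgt
Su(H) summit 1: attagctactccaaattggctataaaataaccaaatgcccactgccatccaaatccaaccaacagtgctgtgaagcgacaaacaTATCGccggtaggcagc
Psn summit 1: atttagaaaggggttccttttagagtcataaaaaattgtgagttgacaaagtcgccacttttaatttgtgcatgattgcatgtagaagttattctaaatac
neur summit 1: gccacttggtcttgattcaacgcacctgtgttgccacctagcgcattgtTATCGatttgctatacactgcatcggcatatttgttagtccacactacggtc
neur summit 5: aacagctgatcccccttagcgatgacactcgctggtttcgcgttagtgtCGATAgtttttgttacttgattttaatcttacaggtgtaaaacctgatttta
Summits are numbered within a gene in the order of their coordinates. These windows differed in base composition: GC content was 27.7% for N summit 4 and neur summit 2, 31.7% for Psn summit 1, 39.6% for neur summit 5, 43.6% for numb summit 3, 45.5% for Su(H) summit 1 and 47.5% for neur summit 1.

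A gene was counted as having a promoter summit where at least 1 of its transcription start sites (TSSs) had a summit no more than 500 bp away. By this measure N, Su(H), mam, neur, numb and Psn had a promoter summit, 6 of 10 genes or 60%, while 34.0% of all protein coding genes did (4747 of 13968). The same 6 genes were the ones with any summit in the gene or 2 kb around it, a state shared by 52.2% of all protein coding genes (7290). The receptor, the ligand-activating ubiquitin ligase, the catalytic subunit of gamma-secretase, both activating nuclear factors and the inhibitor numb were thus among the bound genes, and the ligands Dl and Ser, the glycosyltransferase fng and the repressor H were not. When the 8340 strongest peaks of each replicate were used in place of the optimal list, the same count of genes was found in every replicate, 6 ± 0 (SD, n = 3) for promoter summits and also for summits anywhere in the gene and its surroundings. The number of summits in the 10 genes was 29, 30 and 29 in replicates 1, 2 and 3, or 29.3 ± 0.577 (SD, n = 3), and was thus nearly the same in each. Both shares over all genes vary with gene length, and most of the 10 genes are over 5 kb, while 10476 of the 13968 are under 5 kb. A promoter summit was present at 30.3% of genes under 5 kb, 46.8% of 5 to 20 kb, 42.4% of 20 to 40 kb and 38.5% over 40 kb. Any summit was present at 46.1%, 68.0%, 75.5% and 78.0% of these classes, so the 60% for any summit lies below all classes over 5 kb. The 60% is a description of 10 chosen genes and was not tested.

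**Figure D1:**
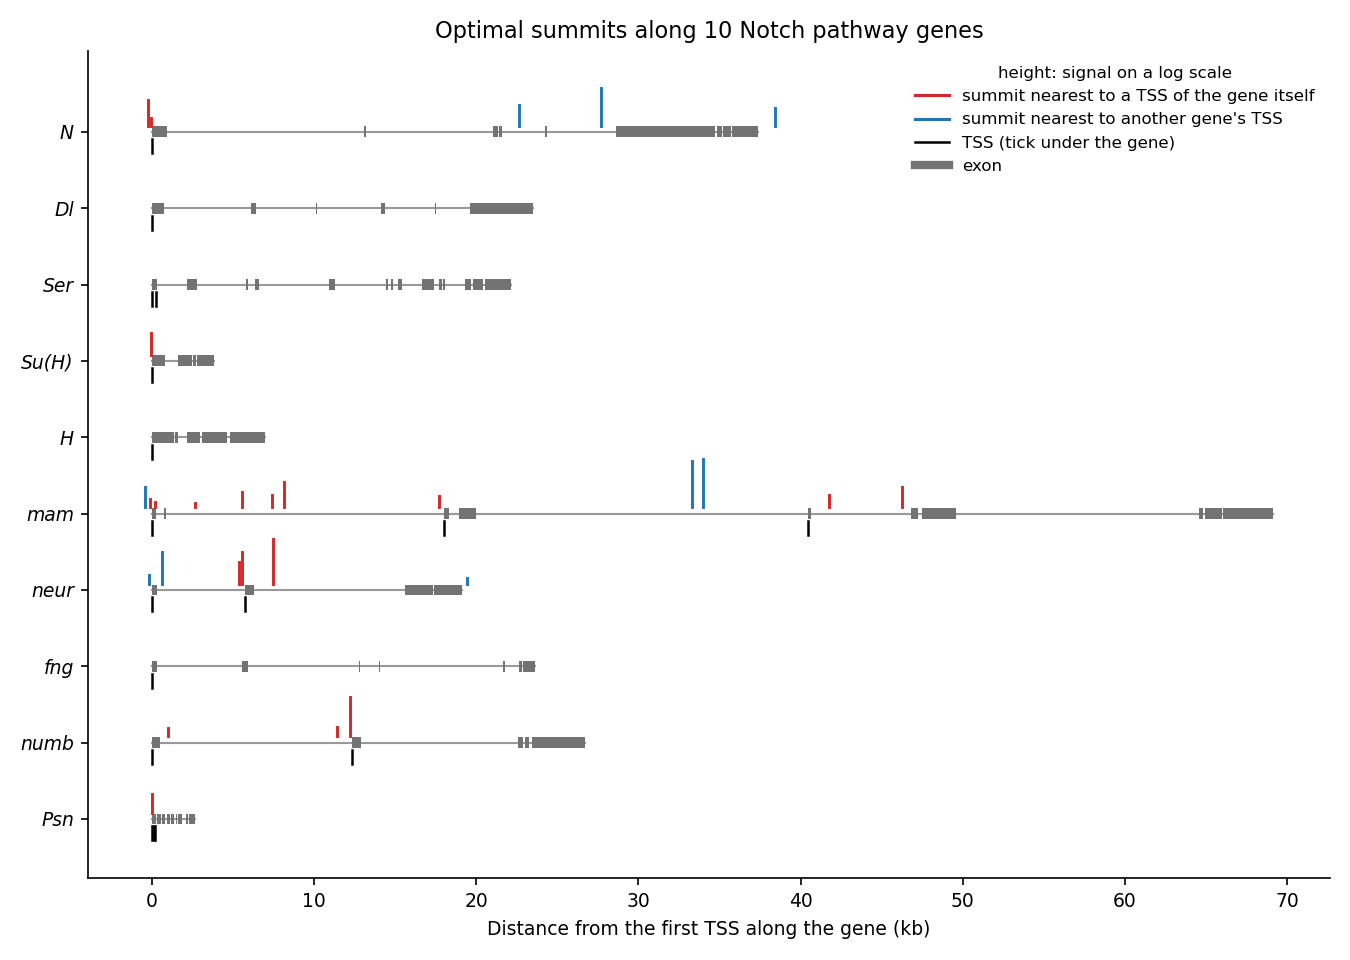
Map of the 10 genes drawn to scale along their own direction of transcription, with distance from the first TSS in kb on the horizontal axis, exons as grey blocks and TSSs as black ticks below the line. Coloured bars above the line are optimal summits, with a height that follows the authors' signal value on a log scale, red where the nearest TSS of any protein coding gene belongs to the gene itself (19 summits) and blue where it belongs to another gene (9 summits), and Dl, Ser, H and fng carry no bar.

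Sites near a TSS were mostly upstream of it. Of the 28 summits, 12 lay within 500 bp of a TSS of the gene itself, 10 of them upstream of that TSS and 2 downstream, at a median of -163.5 bp. Among all optimal summits within 500 bp of a protein coding TSS, 82.1% were upstream. By the model of the gene itself, 18 of the 28 summits were in introns, 2 in a 5′ UTR, 6 upstream and 2 downstream of the gene, and none was in coding sequence or a 3′ UTR. More than 2 kb separated 9 of the 28 summits from every protein coding TSS, and 31.0% of all optimal summits lay as far away. A further property that bears on the assignment is that 9 of the 28 summits were closer to the TSS of a neighbouring gene than to one of the Notch pathway gene.

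The receptor gene N (FBgn0004647, dm6, X:3134870-3172221, plus strand) has 1 TSS and held 5 summits. This number was reached or passed by 362 protein coding genes (2.59%) counted in the same way. Such counts, here and below, include the gene itself. The first summit of N lay 255 bp upstream of the TSS with a signal of 344, which is the authors' own value for the peak and ranked 2690 among the 8340 optimal peaks. Its rank was 3183, 2590 and 2404 in the lists of replicates 1, 2 and 3. The second lay 46 bp upstream, 209 bp from the first, and was weaker, with a signal of 146 at rank 7037. It ranked 3543 in replicate 1 and 7465 in replicate 2, and no summit of replicate 3 lay within 100 bp of it. The promoter of N was therefore marked by a site found in every replicate at -255 and by a second found in 2 of them. Both sites also fall within 2 kb of kirre, a gene for an adhesion protein of myoblast fusion, whose annotated end lies 337 bp before N on the same strand and which holds 33 summits in all.

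The strongest site of N was not at its promoter. Summit 4, in an intron 27673 bp downstream of the TSS, had a signal of 588 at rank 1189, and ranks of 1266, 1170 and 1291 in the 3 replicates. The nearest TSS to it was that of CG18508, 10597 bp away. Its mean rank over the replicates was 1242 ± 63.9 (SD, n = 3), and its ranks in the replicates did not overlap those of any other summit of the gene. Summit 3, also intronic at +22627, had a signal of 264 at rank 3664 and ranks of 3150, 4245 and 4033, and was also nearer to CG18508, at 15643 bp. Summit 5 lay beyond the 3′ end of N and 148 bp upstream of the TSS of CG18508 on the opposite strand, with a signal of 234 at rank 4225 and ranks of 5005, 3897 and 4419.

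Psn (FBgn0284421, 3L:20432468-20435156, plus strand) encodes Presenilin, the catalytic subunit of gamma-secretase. Its single summit lay in the 5′ UTR, 44 bp downstream of the first of 3 TSSs and 83 and 127 bp upstream of the others. The signal was 242 at rank 4061, with ranks of 4188, 3859 and 4817 in replicates 1, 2 and 3. The divergent gene Las starts on the other side of the same site, which is 151 bp upstream of the TSS of Las, so that the site cannot be given to one of the 2 promoters by distance alone.

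The ubiquitin ligase gene neur (FBgn0002932, 3R:9020348-9039471, minus strand) held 6 summits, 4 inside its 19124 bp and 2 in the flanks, or 2.59 per 10 kb of the gene with its surroundings, and 223 protein coding genes (1.6%) held as many or more. The strongest was summit 2, in an intron 1711 bp downstream of the second TSS, with a signal of 818 at rank 674. It ranked 801, 570 and 752 in the replicates, a mean of 708 ± 122 (SD, n = 3). Summits 3 and 4 lay 187 and 389 bp upstream of the second TSS. Summit 3 had a signal of 442 at rank 1896 and ranks of 2460, 1725 and 1696, whereas summit 4 had a signal of 284 at rank 3397 and ranks of 4496, 2698 and 6450. The second, internal promoter of neur thus carried a pair of sites, each among the 8340 strongest peaks of all 3 replicates.

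Each of the other summits assigned to neur was nearer to a TSS of another gene, and summit 6 lay at a promoter shared by neur and hyx. Summit 5 was 608 bp downstream of the first TSS of neur but 103 bp downstream of a TSS of hyx, which encodes a subunit of the transcription elongation complex PAF and is transcribed in the opposite direction. Its signal was 440 at rank 1906, with ranks of 1790, 1831 and 2167. Summit 6 was 183 bp upstream of the first TSS of neur and 112 bp upstream of a second TSS of hyx, with a signal of 152 at rank 6739 and ranks of 5530, 7010 and 9171. Summit 1 was beyond the 3′ end of neur, 37 bp upstream of the TSS of tgo, the gene for the bHLH-PAS partner protein Tango, with a signal of 129 at rank 8012. It ranked 7121 and 8097 in replicates 1 and 2 and had no counterpart in replicate 3.

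No optimal summit was assigned to the ligand genes. In Dl (FBgn0000463, listed as Delta in the annotation, 3R:19302731-19326217, minus strand) the strongest of 4 peaks in the longer pooled list, which also holds background, had a signal of 43.8 at rank 21242 and lay in an intron at +1328. In Ser (FBgn0004197, 3R:27172090-27194267, minus strand) the pooled list held a single peak, with a signal of 38.3 at rank 23969, in an intron 7331 bp from the nearer TSS. The optimal list ended at a signal of 123, so both were far below its end. In the full replicate lists the best rank was 15323 and 13534 for Dl in replicates 1 and 3. For Ser it was 13479 and 8654 in the same replicates, and replicate 2 held no peak in either gene. The nearest optimal summit was 76054 bp from Dl and 18408 bp from Ser. These genes are 23487 and 22178 bp long, and of the 552 protein coding genes of 20 to 40 kb 75.5% held a summit in the gene or its surroundings and 42.4% had one at a promoter.

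The glycosyltransferase gene fng (FBgn0011591, 3L:20925891-20949512, minus strand) and the repressor gene H (FBgn0001169, 3R:20621938-20628915, plus strand) differed from the ligand genes in that each had a pooled peak close to its TSS. That of H was just outside the optimal list, and that of fng was further below its end. The peak of H lay 38 bp upstream of the TSS, with a signal of 118 at rank 8701 of the pooled list, and ranked 9287 and 8583 in replicates 1 and 2 with no counterpart within 100 bp in replicate 3. The peak of fng lay 21 bp upstream, with a signal of 95.6 at rank 10606, and ranked 9308, 11621 and 16775 in the replicates. For comparison, the weakest of the 28 summits in the 10 genes, mam summit 4, had a signal of 125 at rank 8266. The whole pooled list adds weaker peaks that lie below the end of the optimal list. With it 8 of the 10 genes had a promoter peak, the 2 added being H and fng, and so did 55.2% of all protein coding genes. The absence of H and fng from the bound genes therefore depends on where the authors' list ends.

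**Figure D2:**
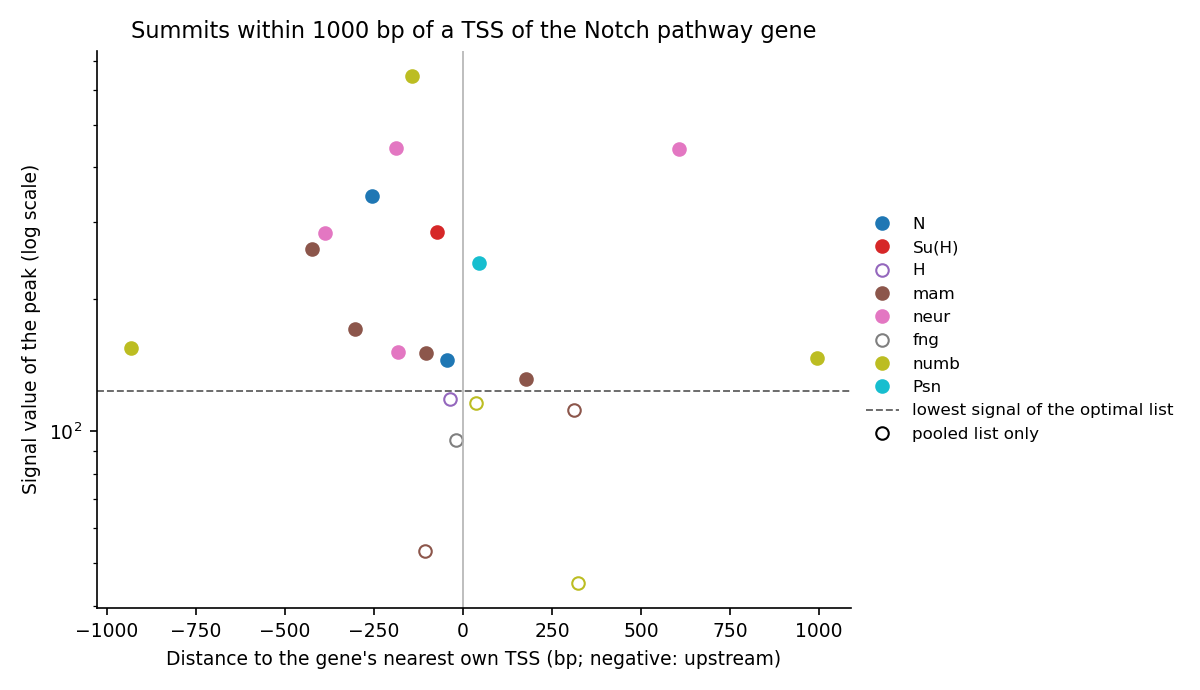
Signal value of each peak on a log scale against its distance in bp from the nearest TSS of the Notch pathway gene, within 1000 bp, with negative distances upstream. Filled points are optimal peaks, open points are peaks of the pooled list alone and the dashed line is the lowest signal of the optimal list (123). Above the line numb (646 at -144 bp) stands highest. The strongest points below the line are H (118 at -38 bp), numb (116 at +37 bp), mam (112 at +313 bp) and fng (95.6 at -21 bp).

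Su(H) (FBgn0004837, 2L:15039488-15043334, plus strand) encodes the DNA-binding protein of the pathway. It had 1 summit, 72 bp upstream of its TSS, with a signal of 284 at rank 3387. The ranks in replicates 1, 2 and 3 were 3376, 2725 and 5321, so the site was found in all of them, lower in the list of replicate 3. The divergent gene CIAPIN1 starts 555 bp away. No match to the Su(H) word GTGGGAA was present within 50 bp of any of the 28 summits, nor was its shorter core TGGGAA. Of all optimal summits 0.935% and 5.12% had them, so few matches could be met in 28 windows and their absence says little. Within 100 bp GTGGGAA was at 1 of 28 (3.57%, against 2.19% of all optimal summits). TGGGAA was then at 2 of 28 (7.14% against 10.6%).

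The coactivator gene mam (FBgn0002643, 2R:13991203-14060356, plus strand) held 12 summits, 42.9% of those in the 10 genes, and 23 protein coding genes (0.165%) held as many or more. It is also the longest of the 10 at 69154 bp, and its density of 1.64 summits per 10 kb was below that of neur. The 2 strongest summits of all 10 genes lay in the long intron ahead of the third TSS. Summit 10 was 6472 bp upstream of that TSS, with a signal of 1008 at rank 462 and ranks of 531, 366 and 388 in the replicates. Summit 9 was 672 bp away at -7144, with a signal of 900 at rank 574 and ranks of 430, 663 and 454. Their mean ranks were 428 ± 89.6 and 516 ± 128 (SD, n = 3), so their order differed between replicates and they could not be ranked against each other. By distance both were nearest to CG18371, a gene nested in mam, from whose TSS they were 3429 and 4101 bp.

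Around the first TSS of mam there were 3 weaker summits. Summit 1 was 425 bp upstream of mam but 71 bp upstream of the divergent gene RN-tre, with a signal of 261 at rank 3715 and ranks of 3964, 3430 and 4119. Summit 2, at -104, had a signal of 151 at rank 6783. It ranked 6980 and 8252 in replicates 1 and 2 and 8459 in replicate 3, below the 8340 strongest. Summit 3 lay in the 5′ UTR at +177, with a signal of 131 at rank 7859, and was found in replicates 1 and 2 at ranks 4648 and 7935. The second TSS, 17996 bp further on, had summit 8 at -304, with a signal of 171 at rank 5946 and ranks of 9161, 5586 and 5153. The third TSS had no optimal summit within 500 bp. The other 6 summits were intronic. After the first TSS lay summit 4 at +2691 with a signal of 125, summit 5 at +5582 with 208, summit 6 at +7423 with 177 and summit 7 at +8158 with 337, which ranked 2846, 2991 and 2286 in the replicates. After the third TSS lay summit 11 at +1322 with a signal of 182 and summit 12 at +5787 with 258. All but summit 4 of these 6 were in the strongest peaks of every replicate.

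The inhibitor gene numb (FBgn0002973, 2L:9437469-9464184, plus strand) held 3 summits, with 1510 protein coding genes (10.8%) holding as many or more. Summit 3, 144 bp upstream of the second of 2 TSSs, was the strongest promoter summit of the 10 genes, with a signal of 646 at rank 1024. It ranked 983, 1061 and 971 in replicates 1, 2 and 3, a mean of 1005 ± 48.9 (SD, n = 3), and this was the smallest spread of rank among the summits found in all 3. Summit 2, 933 bp upstream of the same TSS, had a signal of 155 at rank 6626, and summit 1, 993 bp after the first TSS, had a signal of 147 at rank 6951. At the first TSS itself a peak at +37 had a signal of 116 at rank 8887 of the pooled list, below the optimal list, and ranked 7113, 8107 and 16279 in the replicates. The strongest site of numb was therefore at its second promoter, 12361 bp downstream of the first.

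In neur, numb and mam, whose TSSs are kilobases apart, the signal was unequal between alternative promoters, while the 3 TSSs of Psn share a single summit. The strongest summit within 500 bp was at the second TSS in numb (646, against none in the optimal list at the first) and in neur (442, against 152 at the first). In mam it was at the first TSS (261, with 171 at the second). Since the summit of mam at the first TSS was nearer to RN-tre, and that of neur at the first TSS nearer to hyx, signal at these promoters could not be divided between the genes that share them.

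**Figure D3:**
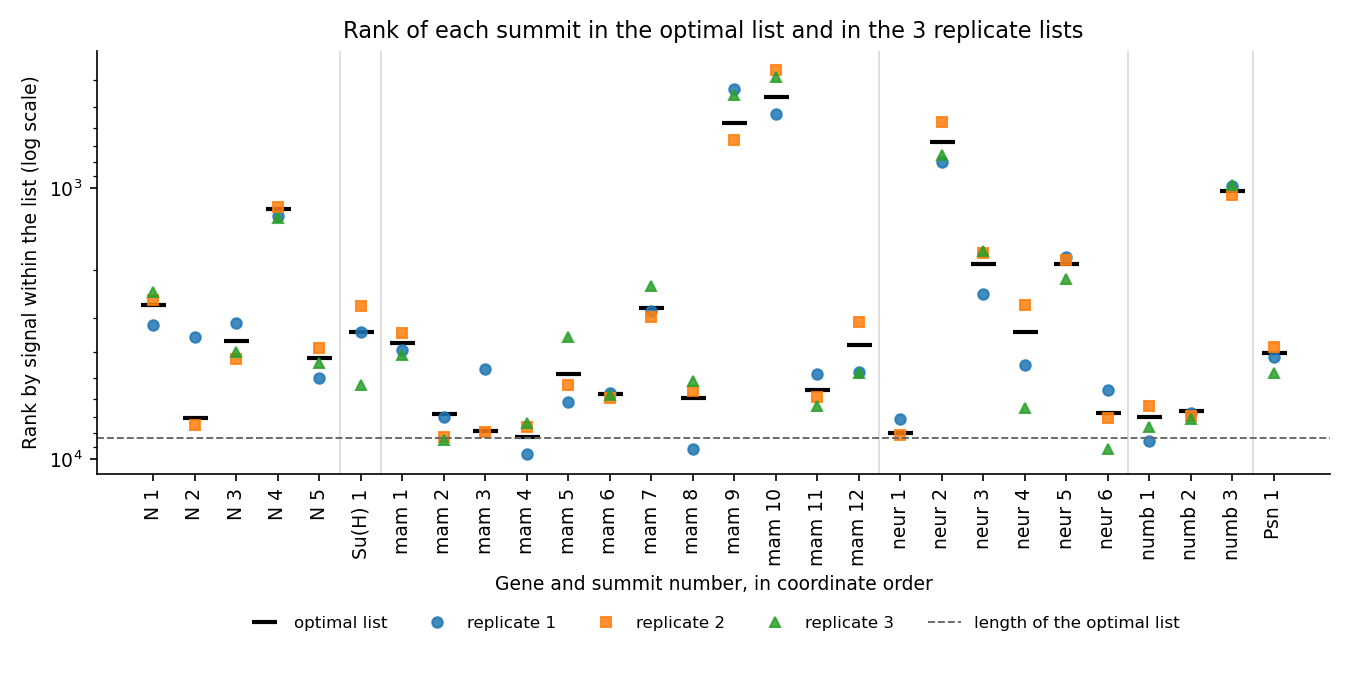
Rank of each of the 28 summits by signal in the optimal list (black bar) and in the lists of replicates 1 (circle), 2 (square) and 3 (triangle), on an inverted log axis so that strong peaks are at the top, with the genes separated by vertical lines. The dashed line is the length of the optimal list, 8340. The 3 replicates lie close together for strong summits such as N summit 4 and numb summit 3 and for weak ones such as mam summit 6 and numb summit 2. N summit 2, mam summit 3 and neur summit 1 have no triangle because replicate 3 held no summit within 100 bp.

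Replicate support of the sites in the Notch pathway genes was close to that of the whole list. Of the 28 summits, 20 (71.4%) lay within 100 bp of one of the 8340 strongest summits of every replicate, against 70.4% of all 8340 optimal summits (5869), and the other 8 did so in 2 replicates. The counts by replicate were 25, 28 and 23. Support followed strength: with the optimal list cut by signal into 5 equal classes, from the strongest to the weakest 5 of 5, 4 of 4, 8 of 8, 3 of 4 and 0 of 7 of these summits were found in all 3 replicates, and the corresponding shares of all optimal summits were 97.8%, 95.0%, 88.7%, 59.6% and 10.8%. As a description over the 25 summits found in all 3 full lists, which share the genes and the regions around them, Spearman's rho of signal was 0.921 between replicates 1 and 2, 0.870 between 1 and 3 and 0.889 between 2 and 3. The optimal list was made from these replicates, so its peaks are not independent of them.

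In strength the 28 summits were spread over the whole list. Their median percentile of signal in the optimal list was 53.0, from 0.893 for mam summit 4 to 94.5 for mam summit 10, where 100 is the strongest peak. Within the 8340 strongest peaks of replicates 1, 2 and 3 the median percentile of the summits in the 10 genes was 46.1, 51.2 and 42.4, or 46.6 ± 4.41 (SD, n = 3), near the middle in each. The summits within 500 bp of a TSS of the gene itself and the rest had median ranks of 3888 and 4000. The density of summits was 1.02 per 10 kb over the 10 genes and their surroundings, 0.740 over all protein coding genes and theirs, and 0.606 over the 7 chromosome arms. This density rests on mam and neur, which hold 42.9% and 21.4% of the summits.

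**Figure D4:**
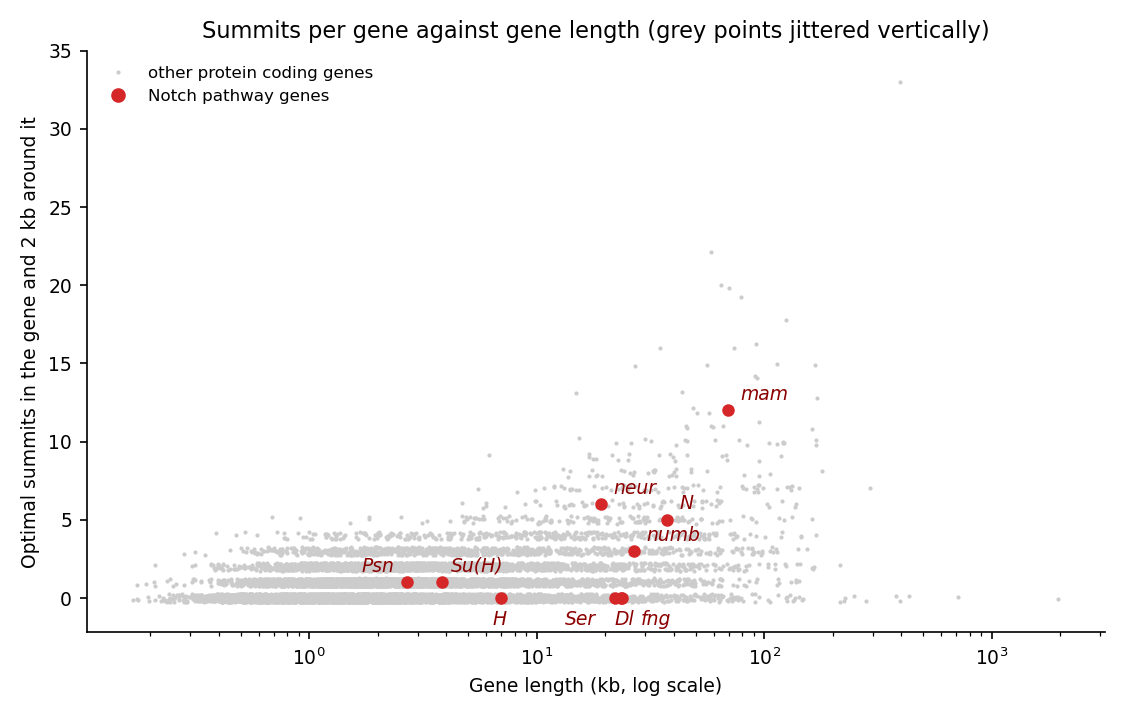
Number of optimal summits in each protein coding gene and the 2 kb around it against gene length in kb on a log axis, with the 10 Notch pathway genes in red and all others as grey points jittered vertically. The numbers of mam (12 summits) and neur (6) are reached or passed by 23 and 223 genes of any length, the gene itself included. Dl, Ser and fng lie at 0 among genes of 20 to 40 kb, 75.5% of which hold a summit.

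Known sequence words were looked for on either strand in the 101 bp around each of the 28 summits. CGATA occurred at 9 of 28 (32.1%), against 18.9% of all optimal summits and 11.6% of windows of the same length centred 500 bp to either side of them. Within 25 bp it occurred at 3 of 28 (10.7%) and at 11.0% of all optimal summits, so the higher share at 50 bp was not seen in the narrower window. Within 100 bp it occurred at 12 of 28 (42.9%) and at 32% of all optimal summits, so the share was higher again in the wider window. In 3 of the 9 summits with CGATA within 50 bp the centre of the word was within 4 bp of the summit: neur summit 1, neur summit 5 and mam summit 1. All 3 are among the 9 of 28 summits that were nearer to the TSS of another gene, here tgo, hyx and RN-tre. Of the summits nearer to another gene, N summits 3 and 5 and mam summit 10 had no CGATA. In N summit 4, mam summit 9 and neur summit 6 its centre lay 34, 39 and 43 bp from the summit. A link between CGATA and neighbouring promoters was not tested. The TATA box word TATAAA occurred at 6 of 28 (21.4%), close to its share of 19.9% at all optimal summits, and at 10.1% of the flanking windows. Within 100 bp the shares were 28.6% and 34.7%, in the other order. The median GC content of the windows was 34.7% at the 28 summits and 33.7% at all optimal summits, with 39.6% and 44.6% in their flanks. The part of this base composition in the counts of AT-rich words was not tested, and a match describes letters only.

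The wider pathway was described with a list of 57 other genes in 7 roles, all of which matched the annotation. A promoter summit was present at 24 of them (42.1%, against 34.0% of all protein coding genes), with 24, 24 and 25 in the strongest peaks of the 3 replicates (24.3 ± 0.577, SD, n = 3). With a window of 200 bp the count was 15 of 57 and the share of all protein coding genes 26.2%, so the list then stood at the background. The share differed by role, from 4 of 5 genes of asymmetric division to 1 of 15 Enhancer of split and Bearded family genes and 0 of 4 other targets. The best promoter summit of 7 of the 24 was nearer to the TSS of another gene. A summit anywhere in the gene or 2 kb around it was present for 34 of the 57, and for 52.2% of all protein coding genes. The roles hold between 3 and 15 genes each, and their differences were not tested.

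Genes for the handling of ligand and receptor were bound in 8 of 12 cases. The strongest was rumi, which encodes a glucosyltransferase of Notch, with a signal of 886 at rank 591, 99 bp upstream of its TSS. Sec15 (557) and Rab11 (345), which act in vesicle recycling, and crb (306), a polarity protein, followed. The summit of Sec15 was nearer to rtet. The dynamin gene shi (226), the receptor fucosyltransferase gene O-fut1 (203), the epsin gene lqf (201) and the ligand ubiquitin ligase gene mib1 (200) had lower signals. No promoter summit was found for frc, spdo, shrb and Vps25. In the gene and its surroundings, however, frc held 4 summits, the strongest at rank 64, and shrb held 1, at rank 7723. Of the receptor's own ubiquitin ligases, Nedd4 (363) and Su(dx) (197) had a promoter summit and dx did not.

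Besides Psn, the gamma-secretase subunit genes aph-1 (signal 950, rank 523, at -281) and pen-2 (265, nearer to Ote) had promoter summits. There was none for nct, although 1 summit lay in the gene and its surroundings, at rank 493. Among the other genes of receptor cleavage and membrane factors, Fur1, a furin protease, had the strongest promoter summit of the list, 2245 at rank 87, at a site nearer to Vps33B, and bib had a signal of 261. The metalloproteases kuz and Tace, which make the first ligand-dependent cut or a related one, had none at a promoter, nor had Fur2, amx and pcx. In the gene and its surroundings kuz held 3 summits and Tace and Fur2 1 each. In asymmetric division, where Numb acts, the summits of AP-2alpha (1106, nearer to ebi), par-6 (913, nearer to CG8188) and Nak (269, nearer to Tango6) were all closer to another gene, that of aPKC (535) was at its own TSS, and l(2)gl had none.

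In the nucleus, 5 of 8 genes had a promoter summit. The corepressor gene gro had a signal of 1512 at rank 194, 129 bp upstream of its TSS. It was followed by nej, the CBP acetyltransferase (484), Nle (472), Cdk8 of the Mediator kinase module (374) and Bx42 (228, nearer to Arfrp1). No promoter summit was present for CtBP, sno and CycC, although CtBP held 4 summits in the gene and its surroundings. Of the Enhancer of split and Bearded family, the direct transcriptional targets of the pathway, E(spl)m3-HLH alone had a promoter summit, with a signal of 892 at rank 584, 413 bp upstream of its TSS and in the strongest peaks of all 3 replicates. The 14 without one were E(spl)mdelta-HLH, E(spl)mgamma-HLH, E(spl)mbeta-HLH, E(spl)m5-HLH, E(spl)m7-HLH, E(spl)m8-HLH, E(spl)malpha-BFM, E(spl)m2-BFM, E(spl)m4-BFM, E(spl)m6-BFM, BobA, Brd, Tom and Ocho. Of these, E(spl)malpha-BFM had 1 summit within 2 kb and E(spl)m8-HLH 2, among them the strong promoter summit of the neighbouring gro at rank 194. The further Notch targets Hey, ct, wg and vg had no promoter summit, although ct held 4 summits in the gene and its surroundings.

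**Figure D5:**
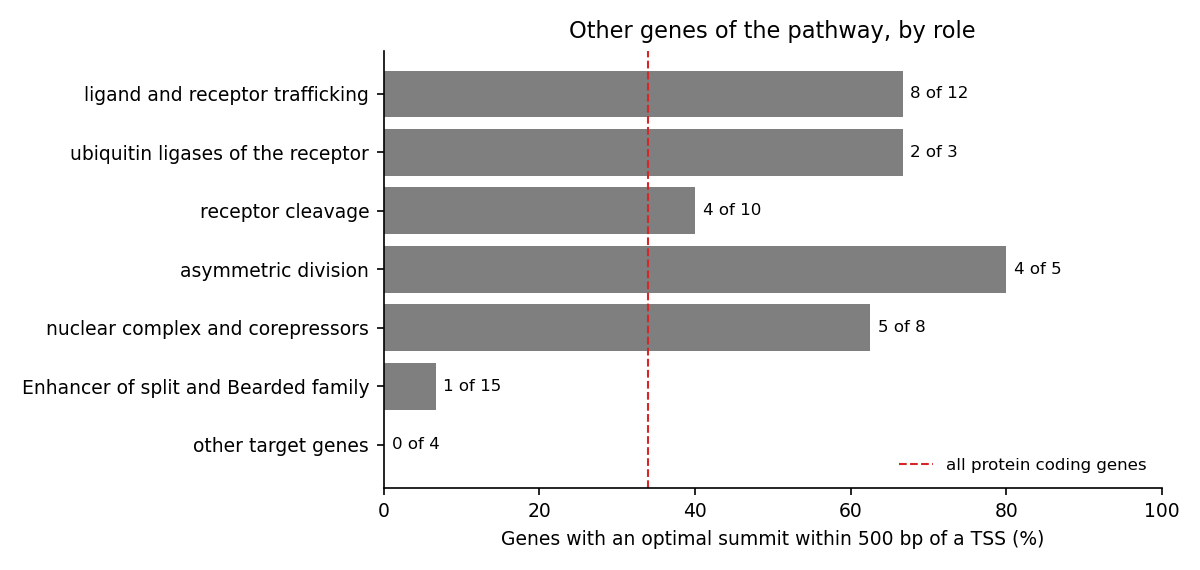
Percent of genes with an optimal summit within 500 bp of a TSS, by role in the pathway, for 57 genes other than the 10; the numbers beside the bars are genes with a summit of genes in the role. The dashed line is the share of all protein coding genes, 34.0%, and the bar of the Enhancer of split and Bearded family (1 of 15) ends left of it while those of trafficking (8 of 12), asymmetric division (4 of 5) and nuclear factors (5 of 8) end right of it.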

How the data were processed

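Per the labels, chromatin from 3 biological replicates of CG2120-eGFP embryos was sheared by sonication (200 to 800 bp) before precipitation with anti-GFP. The authors deposited narrowPeak lists for dm6: 1 per replicate (30000, 30000 and 27353 peaks), 1 pooled (30000) and the optimal list (8340), which holds the strongest pooled peaks. Per the text deposited with each sample, 1 control served for all lists. Aligner and caller are not given in these sources. The authors' signal value of a peak is not scaled between lists and was ranked within a list. The deposited −log10 q value was at its highest in 6897 optimal peaks and served as an alternative ranking. Depth is unknown, so no interval that needs it is given. The dm3 lists were not used here.

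Genes and TSSs came from Ensembl release 115 (release 6 assembly, dm6 coordinates; Dl matched as Delta through a RefSeq synonym) and sequence from RefSeq. Summits within 100 bp counted as the same. Every summit of the 10 genes is named, with neighbouring genes whose TSS is nearer and, of the 57 further genes, all of them by role. The members and lists were chosen with earlier results of these data known. No test was made. Python 3.11.15, pandas 2.3.3 and numpy 2.4.6 were used, and the counting was tested on simulated peaks. Alternatives changed the list, the windows, the tolerance, the ranking and the replicates.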

Additional observations from a re-analysis of the deposited data

How the results depend on the processing

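The 6 genes with a promoter summit were the same 6 with promoter windows of 200 and 1000 bp, with the stronger 50% of the optimal list, with the peaks found in all 3 replicates and without each replicate in turn (6 to 6), and 8 with the pooled list (55.2% of all genes). The share of all genes with a promoter summit was 26.2% and 38.1% with windows of 200 and 1000 bp. It was 21.8% with the stronger 50% of the list, 27.3% with the peaks found in all 3 replicates and 28.6% to 29.6% without 1 replicate. The genes with any summit numbered 5 with no flank (all genes 18.3%), which drops Su(H), and 7 with 5 kb (all genes 66%), which adds fng. Of the alternatives to the main counts and values, 34 stayed near them and 13 did not. The 28 summits became 15 in the stronger 50% of the list and 87 in the pooled list, and 20 to 25 without 1 replicate. The 24 genes of the wider pathway became 40 with the pooled list (all genes 55.2%), 15 with a window of 200 bp (all genes 26.2%) and 28 with 1000 bp (all genes 38.1%). They became 22 to 24 without 1 replicate (all genes 28.6% to 29.6%). TATAAA and CGATA were each at 3 summits within 25 bp, where fewer bases are searched, and CGATA was then no more frequent than at all optimal summits (10.7% and 11.0%). Within 100 bp TATAAA was at 8 summits (28.6%, all optimal summits 34.7%) and CGATA at 12 (42.9%, all optimal summits 32%). The median percentile of 53.0 became 58.7 by −log10 q, 42.1 over summits nearest to the gene itself and 55.5 to 59.3 without 1 replicate. The 71.4% found in all replicates became 60.7% within 50 bp, 46.4% with the 5000 strongest peaks, 89.3% with the full lists and 71.4% to 89.3% without 1 replicate. The same share over all optimal summits was 56.1%, 45.8%, 91.6% and 75.8% to 79.3%. The 10 genes were thus below the whole list with the full lists, with any overlap of peaks (78.6% and 79.0%) and without replicate 2 (71.4% and 75.8%). They were above it within 50 bp, within 200 bp (78.6% and 76.6%) and with the 5000 strongest peaks. They were also above it without replicate 1 (82.1% and 76.8%) and without replicate 3 (89.3% and 79.3%). With 28 summits, such gaps rest on few of them.

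No paired analysis was possible because there is a single group. Unknown depth limits what a missing peak shows: Dl and Ser had no site in the optimal list, which does not show that CG2120 was absent there. Untagged embryos were not analysed here.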
